A study of Saccharomyces cerevisiae x Saccharomyces paradoxus and Saccharomyces cerevisiae and Saccharomyces paradoxus with 40 samples.

Results

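The genes described here encode proteins of the large (60S) subunit of the yeast ribosome. They are the RPL and RPP genes whose systematic names end in W, chosen by name and not by their values. Of 45 such genes listed, 43 were in the deposited tables of 3217 genes and all 43 could be tested. RPL14B (YHL001W) and RPP2B (YDR382W) were not analysed here. Poly-A RNA of 3 genotypes in sporulation was sequenced, namely the hybrid of S. cerevisiae and S. paradoxus, S. paradoxus, and S. cerevisiae. Each was sampled at T0, when cells enter sporulation medium, at M1, the start of meiosis I, at M1M2, where meiosis I and II overlap, and at M2, the end of meiosis II. There were 4 hybrid libraries and 3 of each parent per stage, 40 in all in 12 groups. All cultures were first grown in rich glucose medium and then moved to acetate medium, so the T0 controls also come from cells that had just left rich medium. Hybrid cultures were made by crossing in both directions, without a label for the direction of any one culture, and no strain name or clone number is given in the sources used here.

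The large subunit joins amino acids into protein in a centre made of RNA, and its proteins fold that RNA, line the tunnel through which the new chain leaves, and form a stalk that recruits the elongation factors. Most of these proteins are encoded by a pair of nearly identical genes left from an ancient duplication of the yeast genome. In growing yeast the genes are among the most strongly transcribed, driven by the factor Rap1 with Fhl1 and Ifh1, and transcription falls quickly when nutrients run out. Assembly factors of the large subunit, which act on the maturing particle and then leave it, are known to be controlled through other promoter elements, called RRPE and PAC.

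Promoter windows are shown for 5 of the genes named below. They set the gene with the largest change in the hybrid at M1, RPL2B, beside others of the group. Each window runs from 400 to 101 bases before the coding start in the RefSeq R64 genome of S. cerevisiae, on the plus strand, and capitals mark matches to the Rap1-like pattern ANCCNNACA on either strand. The windows are chrIX:316368-316667 for RPL2B, chrIV:308024-308323 for RPL13A, chrXVI:302721-303020 for RPL5, chrXV:79948-80247 for RPL25 and chrXII:522263-522562 for RPL37A. The deposited files name no genome build, so the windows were found by gene name, and they belong to S. cerevisiae, not to S. paradoxus.
RPL2B: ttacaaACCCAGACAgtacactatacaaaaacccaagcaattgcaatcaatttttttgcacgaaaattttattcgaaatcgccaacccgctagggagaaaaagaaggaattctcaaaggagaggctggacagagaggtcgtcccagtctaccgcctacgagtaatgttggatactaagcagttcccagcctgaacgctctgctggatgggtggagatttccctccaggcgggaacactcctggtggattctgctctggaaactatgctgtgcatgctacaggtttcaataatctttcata
RPL13A: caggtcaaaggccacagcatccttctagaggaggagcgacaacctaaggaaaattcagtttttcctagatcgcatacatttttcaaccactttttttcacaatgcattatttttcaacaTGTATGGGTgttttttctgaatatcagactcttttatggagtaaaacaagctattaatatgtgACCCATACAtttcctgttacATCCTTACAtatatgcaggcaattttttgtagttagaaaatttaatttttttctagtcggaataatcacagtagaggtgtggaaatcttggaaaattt
RPL5: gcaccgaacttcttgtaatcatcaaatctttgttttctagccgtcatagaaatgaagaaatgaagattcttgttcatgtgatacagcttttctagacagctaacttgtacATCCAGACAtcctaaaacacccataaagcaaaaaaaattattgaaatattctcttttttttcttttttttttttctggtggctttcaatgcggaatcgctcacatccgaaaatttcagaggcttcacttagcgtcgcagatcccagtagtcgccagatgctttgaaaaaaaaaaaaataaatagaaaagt
RPL25: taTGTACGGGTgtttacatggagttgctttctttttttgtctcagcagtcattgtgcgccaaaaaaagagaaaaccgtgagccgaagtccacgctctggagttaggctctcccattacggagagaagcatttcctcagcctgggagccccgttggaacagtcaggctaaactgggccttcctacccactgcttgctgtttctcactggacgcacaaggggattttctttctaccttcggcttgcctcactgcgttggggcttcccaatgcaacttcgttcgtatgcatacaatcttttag
RPL37A: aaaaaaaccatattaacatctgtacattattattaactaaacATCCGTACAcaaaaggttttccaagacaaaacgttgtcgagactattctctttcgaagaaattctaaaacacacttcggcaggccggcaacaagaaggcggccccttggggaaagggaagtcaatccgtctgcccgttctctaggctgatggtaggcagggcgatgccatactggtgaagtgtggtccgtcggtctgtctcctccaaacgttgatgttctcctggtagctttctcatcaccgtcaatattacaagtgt

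Each of the 5 windows held a match. Other genes named below, RPL3, RPL10, RPL14A, RPL21A, RPL21B, RPL27A and RPL31A, had none, so the windows shown do not stand for all of them. RPL13A had 3, which begin 281, 218 and 198 bases before the coding start. The others had 1 each, at 394 bases in RPL2B, 290 in RPL5, 398 in RPL25 and 358 in RPL37A. The pattern was in 28 of the 43 windows (65.1%), against 11.9% of 6001 windows of all protein-coding genes, in 14 of 30 small subunit genes (46.7%) and in 4 of 31 assembly factor genes (12.9%). The stricter ACCCNNACA, a special case of it, was in 16 of 43 windows (37.2%), RPL2B, RPL13A and RPL25 among them, against 3.93% of all windows. GACGC, the core of the Fhl1 site, was in 13 windows (30.2%), against 20.8% of all. AAAATTTT, the core of RRPE, was in 6 windows (14.0%), against 22 of 31 for the assembly factors (71.0%) and 9.07% of all. GCGATGAG, the core of PAC, was in 1 window, that of RPL19B, against 15 of 31 for the assembly factors (48.4%) and 3.47% of all. All patterns were searched on both strands, and matches of different patterns were allowed to overlap. The letters of the Rap1-like patterns were chosen after longer forms had been counted in these windows, and the counts carry no test.

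Depth differed widely, with 23453 to 7732384 counts in genes and a median of 1348916 over the 40 libraries. The shallowest were a library of S. cerevisiae at M1M2 (replicate 2, 23453), 1 of the hybrid at M2 (replicate 3, 117049), 1 of S. cerevisiae at M1 (replicate 2, 159496) and 1 of S. paradoxus at M2 (replicate 2, 300704). In CPM, counts scaled to library size, 1 count in these 4 is worth 80.3, 10.8, 10.2 and 2.93. Hybrid M2 replicate 3 had 19 of the 43 genes at 0 and S. paradoxus M2 replicate 2 had 7, while no other library had more than 3. Stage markers followed the labels. Of 8 such genes, IME2, DMC1 and NDT80 among them, 3, 7 and 8 were called higher in the hybrid at M1, M1M2 and M2. In each parent 4, 7 and 8 were. These calls are against T0, by the test given below. Of all genes tested, 3.07, 9.73 and 12% were higher in the hybrid. In S. paradoxus 1.42, 4.23 and 6.88% were, and in S. cerevisiae 4.07, 6.98 and 11.2%. At M1 the 8 markers together took 0.625 ± 0.170% of the counts in the hybrid (SD, n = 4), 0.752 ± 0.561% in S. paradoxus and 0.165 ± 0.134% in S. cerevisiae (n = 3), so the cultures compared as M1 did not have the same marker levels. Nor were they the same at M1M2, at 3.69 ± 0.624% in the hybrid, 2.94 ± 0.692% in S. paradoxus and 1.90 ± 0.712% in S. cerevisiae. The part of these differences in the results at M1 and M1M2 was not tested. Values below are CPM with library sizes scaled by TMM, changes are log2 values ± SE from edgeR, and a gene is called, or said to have risen or fallen, at a Benjamini-Hochberg adjusted p under 0.05 over all genes tested. CPM is relative to the other genes of a library, and fewer cells with a transcript cannot be told apart from less of it per cell. Counts at an unadjusted p, or by another tool, DESeq2, come without the share of all genes. They show how far a count depends on the threshold or tool and are not read as results about the 43 genes.

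The 43 genes together took a smaller share of the gene counts as sporulation went on, in all 3 genotypes. In percentage points, most of that drop was there at M1 in the hybrid and S. cerevisiae. From M1 to M2 the mean share then went from 0.383 to 0.278% in the hybrid and from 1.91 to 0.532% in S. cerevisiae. Gene counts are those of the 3217 genes in the tables, while R64 has 6002 protein-coding genes, so this is not a share of all messenger RNA. Their share of the gene counts in the hybrid was 2.53 ± 0.528% at T0, 0.383 ± 0.0899% at M1, 0.345 ± 0.147% at M1M2 and 0.278 ± 0.0972% at M2 (mean ± SD, n = 4). In S. paradoxus it was 3.11 ± 0.678, 1.82 ± 1.14, 0.732 ± 0.191 and 0.528 ± 0.108% in the same order (n = 3). In S. cerevisiae it was 6.53 ± 0.55, 1.91 ± 0.791, 1.03 ± 0.51 and 0.532 ± 0.132% (n = 3). The hybrid libraries lay between 0.296 and 0.483% at M1, below every parental M1 library, the lowest of which were at 0.811% in S. paradoxus and 0.994% in S. cerevisiae. The S. paradoxus libraries were far apart at M1, at 3.06, 1.58 and 0.811%, and the first of them lay among the T0 libraries of that species. At M2 the lowest parental libraries, 0.404% in S. paradoxus and 0.384% in S. cerevisiae, overlapped with 1 hybrid library, the shallow replicate 3 at 0.414%, while the other 3 at 0.279, 0.209 and 0.207% lay below every parental library. Most counts of the 43 genes in that replicate, 485 in all, came from RPL27B (160), RPP0 (87), RPL4B (75) and RPL32 (68).

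**Figure D1:**
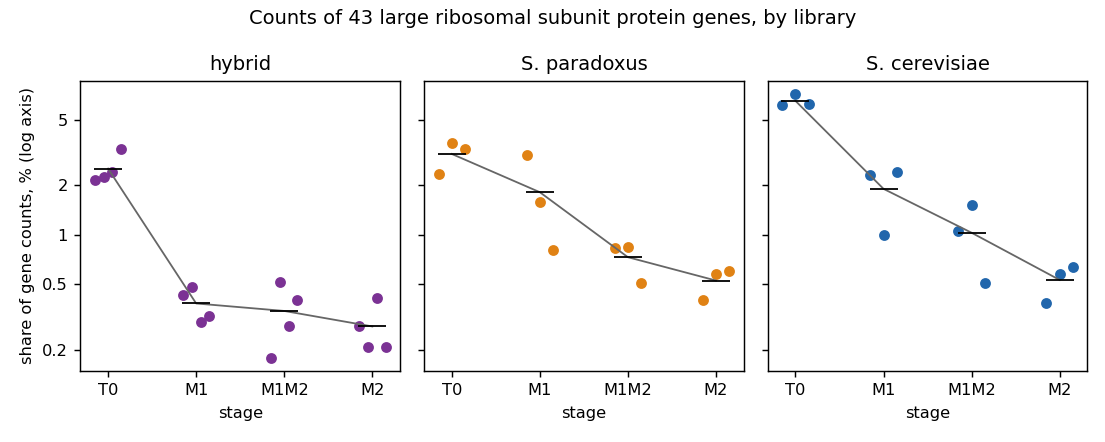
Share of the gene counts taken by the 43 large subunit genes, in % on a log axis, by stage; points are libraries, bars are group means joined by lines. The hybrid mean was 0.383% at M1, against 1.82% in S. paradoxus and 1.91% in S. cerevisiae.

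At T0 the genes were not equally abundant. Levels between genes are compared here per kilobase of coding length. RPL28 (known also as CYH2, through which yeast becomes resistant to cycloheximide) was the highest in the hybrid at 4788 ± 2256 CPM per kb (SD, n = 4), and it was also high in S. paradoxus at 4180 ± 1828 and in S. cerevisiae at 9040 ± 2098 (n = 3). RPL10 was the highest in S. paradoxus at 4439 ± 1413 and RPL39, which encodes a short protein of the exit tunnel, in S. cerevisiae at 9409 ± 3840. Each of these 3 leading genes differed from the next gene in its genotype by less than its own SD. RPL4A, RPL1A, RPL4B and RPL7B were among the 5 lowest in all 3 genotypes. RPL4A had 59.4 ± 20.6 CPM per kb in the hybrid, 163 ± 136 in S. paradoxus and 126 ± 15.5 in S. cerevisiae.

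Genes with a near-identical copy had low median levels in the tables. For 8 genes (RPL1A, RPL1B, RPL4A, RPL4B, RPL7B, RPL35A, RPL35B and RPL42A) over 50% of the 40-base windows of the coding sequence occur in another gene of R64. Their median at T0 was 289 CPM per kb in the hybrid, 211 in S. paradoxus and 385 in S. cerevisiae. For 16 genes with no such window the medians were 2003, 2031 and 6251, and for the 19 genes in between 1097, 1123 and 2777. Not each of the 8 was low, since RPL42A had 2887 ± 1048 CPM per kb in S. cerevisiae. In S. paradoxus RPL35A, at 565 ± 223, was above RPL27B, which has no such window, at 520 ± 211. How reads that fit 2 copies were treated is not given in the sources used here, so the levels of these 8 genes are uncertain. In all 55408 cells checked the hybrid value was the sum of its alleles. How hybrid reads that fit both species were treated is not given either, and whether stretches alike in both species count differently in the hybrid and in a parent was not tested. Changes over stages within the hybrid compare values made in the same way, so changes and levels are both given below.

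In the hybrid most large subunit genes fell at M1 and were low at the later stages. At M1 34 of 43 fell relative to T0 and none rose (lower in 9.41% of all 3094 genes tested), with a median change of -3.16 against -0.06 for all genes. At M1M2 37 fell (12.4% of all genes), with a median of -3.38, and at M2 37 fell (14% of all genes), with a median of -3.90. Of the 43 genes 30 were called lower at all 3 stages and RPL1A at none. The share of all genes called lower at all 3 was not counted, and cannot exceed the 9.41% at M1. For 37 genes every M1 library lay below every T0 library, which held for 14.6% of all genes. The count at M1 was 21 without M1 replicate 1 and 22 without M1 replicate 4, and the change at M1 was negative for all 43 genes in the fit of all libraries.

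**Figure D2:**
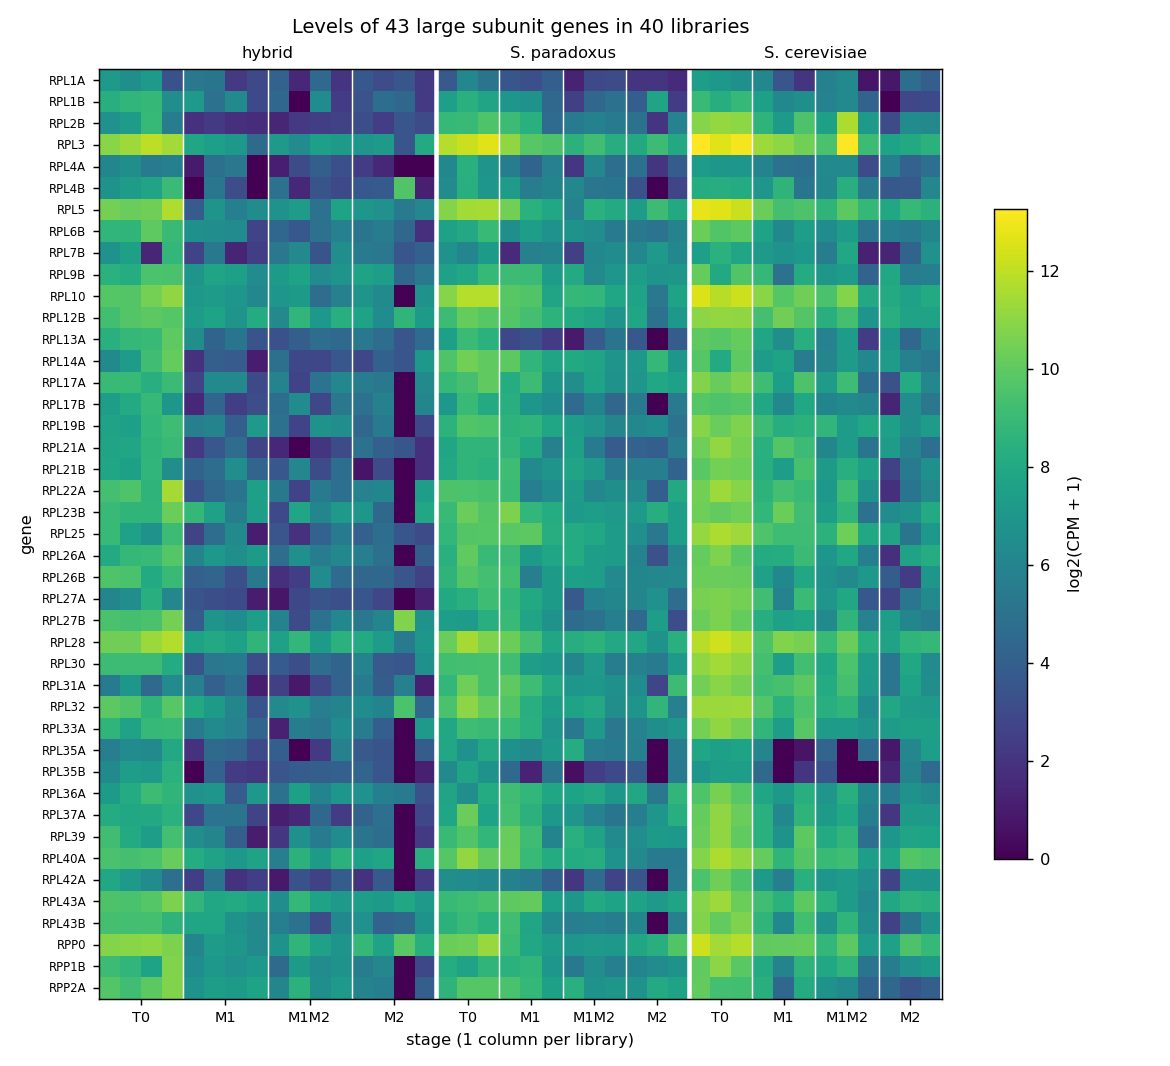
Level of each of the 43 genes (log2 of CPM plus 1, colour) in each of the 40 libraries, by genotype and stage. Dark cells from M1 onward in the hybrid mark low levels, and the column with many cells at 0 in the hybrid at M2 is replicate 3.

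Among genes for proteins near the peptidyl transferase centre and the 5S RNA, RPL2B had the largest change at M1. RPL2B (YIL018W), which encodes uL2 beside that centre, had 103, 162, 470 and 45.9 CPM at T0, 2.75, 3.85, 2.42 and 2.22 at M1, 1.68, 3.61, 4.49 and 5.02 at M1M2 and 8.11, 4.31, 10.8 and 7.53 at M2 in the hybrid. All 12 later libraries lay under the lowest T0 library. Its change at M1 was -6.05 ± 0.98 (adjusted p = 6.51e-06), at M1M2 -5.75 ± 0.96 and at M2 -4.81 ± 0.96. RPL3 (YOR063W), for the protein that reaches into the centre, had 219, 177, 133 and 23.4 CPM at M1 in the hybrid, against 1890, 2580, 3895 and 2705 at T0. The groups were far apart, and the change was -4.32 ± 0.69 (adjusted p = 5.72e-06). RPL10 (YLR075W), whose protein is added last, in the cytoplasm, had 135, 156, 123 and 72.3 CPM at M1, against 862, 846, 1419 and 2111 at T0, a change of -3.42 ± 0.65 (adjusted p = 0.000104). RPL5 (YPL131W), whose protein carries the 5S RNA into the particle, had 13.7, 117, 51.6 and 85.6 CPM at M1, against 1416, 1216, 1324 and 3338 at T0, and fell by 4.76 ± 0.68 (adjusted p = 6.96e-07).

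Genes for proteins of the outer surface and the tunnel exit showed the same direction. RPL14A (YKL006W), for a surface protein, had 2.75, 15.4, 12.9 and 1.11 CPM at M1 in the hybrid, against 81.6, 153, 593 and 1135 at T0. The T0 libraries were widely spread, but the groups did not overlap, and the change was -5.83 ± 0.97 (adjusted p = 1.13e-05). RPL25 (YOL127W), for the docking site of the signal recognition particle at the tunnel exit, had 5.49, 26.1, 76.2 and 1.11 CPM at M1, against 501, 193, 111 and 554 at T0. It fell by 3.60 ± 0.78 (adjusted p = 0.000715). RPL13A (YDL082W) fell at M1 and M1M2, with changes of -3.90 ± 0.91 and -5.01 ± 0.96. RPL21A (YBR191W) fell too, with changes of -4.85 ± 0.89 at M1 and -6.71 ± 0.98 at M1M2, where its libraries had 1.81, 0, 2.99 and 7.53 CPM. Its paralogue RPL21B (YPL079W) fell by 2.60 ± 0.83 at M1, a call that was lost without any 1 of 6 of the 8 libraries, and at M2 its change was -6.00 ± 1.03. RPL17B, for a protein that lines the tunnel, and RPL35B fell at M1, with changes of -4.95 ± 1.06 and -4.87 ± 1.48, and the call for RPL35B was lost without T0 replicate 4 or M1 replicate 1, 3 or 4.

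The stalk genes fell as well. RPP0 (YLR340W), which encodes the base of the stalk, had 1796, 1889, 2030 and 1606 CPM at T0 in the hybrid, 66.8, 162, 127 and 76.7 at M1, 106, 406, 189 and 114 at M1M2 and 458, 196, 943 and 316 at M2. Every M2 library was above every M1 library. Its changes from T0 were -4.08 ± 0.62 at M1 (adjusted p = 2.72e-06), -3.17 ± 0.60 at M1M2 and -1.96 ± 0.57 at M2 (adjusted p = 0.00764), the last being -1.22 and not called with DESeq2 size factors (adjusted p = 0.142). RPP1B and RPP2A, for proteins bound to RPP0, fell at both stages, with changes of -2.67 ± 0.77 and -2.74 ± 0.73 at M1 and -4.37 ± 0.84 and -4.89 ± 0.81 at M2, so of these 3 genes RPP0 alone was nearer to T0 at M2 than at M1. Neither of its steps, M1 to M1M2 and M1M2 to M2, was called.

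In S. paradoxus few of these genes were called at M1 and more at the later stages. At M1 2 of the 43 genes, RPL13A and RPP0, fell (1.94% of all genes were lower), the median change was -0.98, and 6 of the 43 had a positive change, none of them called. At M1M2 15 genes fell (5.11% of all genes; median -2.52) and at M2 21 fell (8.24% of all genes; median -2.70). For 13 genes every M1 library lay below every T0 library, against 15.7% of all genes. RPL13A had 6.35, 8.47 and 4.15 CPM at M1, against 178, 534 and 358 at T0, and fell by 5.85 ± 1.17 (adjusted p = 0.000797). RPP0 had 519, 239 and 152 CPM at M1, against 1256, 1300 and 2354 at T0, and fell by 2.43 ± 0.67 (adjusted p = 0.0241), but was not called without T0 replicate 3 or M1 replicate 2 or 3. RPL2B had 535, 337 and 24.2 CPM at M1, against 467, 514 and 791 at T0. The first M1 library lay within the T0 range, the other two lay below it, and the change was -0.99 ± 0.89 (adjusted p = 0.701). RPL25 had 933, 978 and 304 CPM at M1, against 438, 825 and 854 at T0, overlapping groups with a change of 0.06 ± 0.81 (adjusted p = 0.995). By M1M2 RPL2B was at 41.9, 56.2 and 44.4 CPM and fell by 3.63 ± 0.98 relative to T0 (adjusted p = 0.0092), although not called without M1M2 replicate 1 or 3. RPL25 was called at M2 alone, where it fell by 2.77 ± 0.87 (adjusted p = 0.021), and that call was lost without T0 replicate 2 or 3 or M2 replicate 1 or 2. The counts moved with single libraries. At M1 the count was 1 without T0 replicate 3 or M1 replicate 2 or 3. At M1M2 it was 8 without T0 replicate 2 or M1M2 replicate 2, 7 without M1M2 replicate 1 and 6 without M1M2 replicate 3. At M2 it was 12 without M2 replicate 2.

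In S. cerevisiae the genes were lower at M1, but few were called until M1M2. At M1 RPL5 and RPL6B fell (4.78% of all genes were lower), the changes of all 43 were negative and their median was -1.94. At M1M2 29 fell (5.43% of all genes; median -3.03) and at M2 37 fell (11.6% of all genes; median -3.76). For 40 genes every M1 library lay below every T0 library, against 18.5% of all genes. RPL5 had 1196, 662 and 758 CPM at M1, against 7008, 6224 and 4644 at T0, and fell by 2.77 ± 0.72 (adjusted p = 0.00863). RPL3 had 2598, 2027 and 1383 CPM at M1, against 9825, 6309 and 8268 at T0. The groups did not overlap, and the change of -2.02 ± 0.72 was not called (adjusted p = 0.0636), but it was without the 4 shallowest libraries (adjusted p = 0.0261). RPL2B had 399, 143 and 752 CPM at M1, against 1836, 2257 and 2037 at T0, with a change of -2.23 ± 0.92 (adjusted p = 0.117), and it fell by 5.20 ± 1.05 at M2. DESeq2 called 13 of the 43 genes at M1, so the count of 2 depends on the tool. It was 0 without M1 replicate 2 and 1 without T0 replicate 1 or 3 or M1 replicate 3, and RPL6B was not called without any 1 of those libraries or M1 replicate 1, nor without the 4 shallowest libraries (adjusted p = 0.0972). At M1M2 the count was 5 without M1M2 replicate 3, 14 without M1M2 replicate 1 and 18 without T0 replicate 1. In M1M2 replicate 2, the shallowest library, RPL2B and RPL3 had 3134 and 9481 CPM, while the other 2 libraries had 186 and 141 CPM for RPL2B and 701 and 537 CPM for RPL3. Without it both were called at M1M2, at -3.74 and -3.84, against -0.96 and -1.24 with it.

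**Figure D3:**
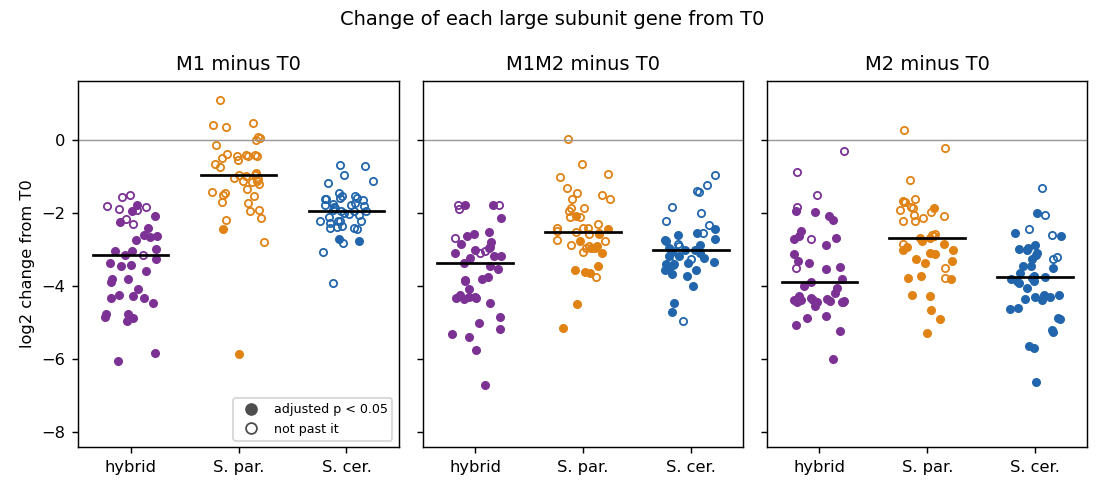
Change of each gene from T0 (log2) at the 3 later stages in the hybrid, S. paradoxus (S. par.) and S. cerevisiae (S. cer.); filled points passed an adjusted p of 0.05 and bars are medians. At M1 the medians were -3.16 in the hybrid, -0.98 in S. paradoxus and -1.94 in S. cerevisiae.

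Single steps between later stages, added after the data were seen, were mostly too small to call. From M1 to M1M2 edgeR called none of the 43 genes lower in the hybrid (2.94% of all genes were), in S. paradoxus (0.646%) or in S. cerevisiae (0.323%). At an unadjusted p under 0.05 there were 4, 17 and 4 genes, and DESeq2 called 1, 6 and 1. The median step was -0.20 in the hybrid, -1.52 in S. paradoxus and -1.04 in S. cerevisiae. From M1M2 to M2 edgeR called none lower in the hybrid (0.0323% of all genes) or in S. paradoxus (0% of all genes), where 4 had an unadjusted p under 0.05 and DESeq2 called 0. For the hybrid DESeq2 called more of the 43 genes in this step than edgeR did, counting both directions, as given under processing below. In the hybrid RPL27B rose by 3.48 ± 0.90 (adjusted p = 0.0429; 0.646% of all genes were higher). It had 39.2, 68.2, 1734 and 112 CPM at M2, against 59.3, 7.22, 30.7 and 71.5 at M1M2, and without M2 replicate 3 the step was 0.71. It was not called without any 1 of the M1M2 libraries either. In S. cerevisiae RPL2B and RPL3 fell, with steps of -4.24 ± 1.03 and -3.63 ± 0.78 (4.59% of all genes were lower), a pair of calls that rests on the shallow M1M2 replicate 2, without which the steps were -1.58 and -1.16 and not called.

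Whether the hybrid differed from its parents was tested on the changes and on the levels. The change from T0 in the hybrid minus the mean of the parental changes had a median of -1.51 at M1, -0.70 at M1M2 and -0.41 at M2 over the 43 genes. No gene was called by edgeR at any stage (0%, 0.42% and 0% of all genes were), while 17, 7 and 1 had an unadjusted p under 0.05 and DESeq2 called 3, 1 and 0. The smallest adjusted p at M1, 0.0868, belonged to RPL2B, with a difference of -4.44 ± 1.08, and to RPL14A, with -4.15 ± 1.07. RPL14A was called in none of the S. paradoxus comparisons, where its change at M1 was -0.98 ± 0.91. The difference in change between S. paradoxus and S. cerevisiae had medians of 1.14, 0.56 and 1.08, and again no gene was called (1.97, 2.62 and 1.52% of all genes were), with 5, 3 and 5 at an unadjusted p under 0.05 and 1, 0 and 3 called by DESeq2. At M1 counts of calls and medians thus differed, while the change of no single gene passed the test of the difference. The counts came from 4 hybrid libraries per stage and 3 of each parent. Without hybrid M1 replicate 1 the hybrid count was 21. For 37 genes in the hybrid, 13 in S. paradoxus and 40 in S. cerevisiae every M1 library lay below every T0 library. This held for 14.6, 15.7 and 18.5% of all genes. The counts of calls alone therefore do not show a difference between genotypes.

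In level, more genes were called lower in the hybrid than in the mean of its parents at M1 than at any other stage. At T0 the hybrid minus the mean of the parents had a median of -0.80, and only RPL31A was lower (0.42% of all genes). At M1 21 of 43 genes were lower (1.84% of all genes), with a median of -2.44 against 0.03 for all genes. At M1M2 10 were lower (2.17% of all genes; median -1.47) and at M2 RPL21B and RPL25 (0.452% of all genes; median -1.24). Against each parent alone at M1, comparisons added after the data were seen, 14 genes were lower than in S. paradoxus (1.16% of all genes) and 23 lower than in S. cerevisiae (4.07% of all genes). The count against the parental mean at M1 was 13 without hybrid M1 replicate 1, that against S. paradoxus 6 without S. paradoxus M1 replicate 1, and that against S. cerevisiae 15 without hybrid M1 replicate 1. At M2 the count and its direction depended on the processing, with 7 calls (2 higher, 5 lower) by size factors in place of TMM, 11 (2 higher, 9 lower) by DESeq2, and 2, both higher, without hybrid M2 replicate 1. The 2 calls were lost together without hybrid M2 replicate 1, 3 or 4 or S. cerevisiae M2 replicate 3. They were also lost without the 4 shallowest libraries, and with the replicate number as a block. RPL25 alone was lost without hybrid M2 replicate 2, S. cerevisiae M2 replicate 1 or S. paradoxus M2 replicate 1 or 3. Without hybrid M2 replicate 1, 2 or 4 other genes were called there.

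For 18 genes every hybrid M1 library lay below every parental M1 library, which held for 1.78% of all genes. They were RPL2B, RPL3, RPL5, RPL10, RPL12B, RPL14A, RPL17A, RPL17B, RPL19B, RPL21A, RPL25, RPL26A, RPL26B, RPL27A, RPL30, RPL31A, RPL33A and RPL37A. RPL2B had 2.22 to 3.85 CPM in the hybrid at M1, against 535, 337 and 24.2 CPM in S. paradoxus and 399, 143 and 752 CPM in S. cerevisiae. Its level minus the parental mean was -6.93 ± 1.00 at M1 (adjusted p = 4.14e-06), -5.94 ± 0.95 at M1M2 and -2.49 ± 0.77 at T0, the last not called. RPL27A had 10.1, 8.10, 6.86 and 1.11 CPM in the hybrid at M1, against 446, 263 and 150 in S. paradoxus and 582, 61.1 and 529 in S. cerevisiae, a difference of -5.65 ± 0.96 (adjusted p = 8.25e-05). RPL21A differed by -5.00 ± 0.88 and RPL14A by -4.98 ± 0.91. At T0 the hybrid means of these genes were already below those of both parents, without being called. RPL27A had 136 CPM, against 390 in S. paradoxus and 1518 in S. cerevisiae. RPL21A had 339 CPM, against 350 and 1684, and RPL14A 491 CPM, against 1069 and 707. Unlike these, RPL13A at M1 had 91.5, 18.2, 34.3 and 10.0 CPM in the hybrid, which lay above 6.35, 8.47 and 4.15 CPM in S. paradoxus and below 221, 91.7 and 325 CPM in S. cerevisiae, with a difference of 0.08 ± 0.76 from the parental mean.

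**Figure D4:**
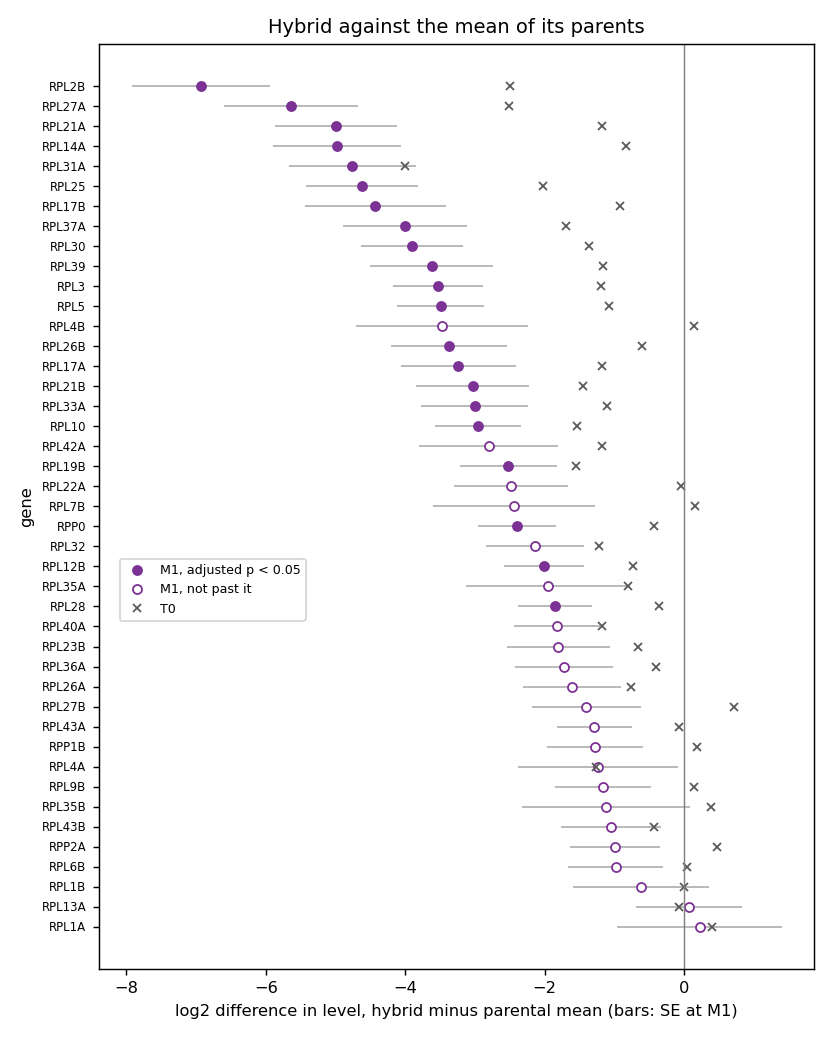
Level in the hybrid minus the mean of its parents (log2) for each of the 43 genes; circles are M1 with the SE as bars, filled where the adjusted p was under 0.05, and crosses are T0. At M1 21 genes were called, all lower, led by RPL2B at -6.93, and at T0 only RPL31A was.

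RPL31A (YDL075W), for a protein at the tunnel exit, was the only gene called lower in the hybrid at T0 already. Others were low there without being called, such as RPL2B, with means of 195 CPM in the hybrid, 591 in S. paradoxus and 2043 in S. cerevisiae. RPL31A had 45.4, 129, 22.9 and 82.6 CPM in the hybrid at T0, against 442, 1278 and 684 in S. paradoxus and 1367, 1940 and 1495 in S. cerevisiae. The hybrid libraries were all below every parental library, and the difference was -4.01 ± 0.88 (adjusted p = 0.00438). It was -4.76 ± 0.91 at M1, -4.71 ± 0.93 at M1M2 and -2.61 ± 0.86 at M2, the last not called (adjusted p = 0.140). In the hybrid the change from T0 to M1 was -1.51 ± 0.83 and not called (adjusted p = 0.255). RPL31A has no 40-base window in common with another gene of R64. How much of its sequence is alike in the 2 species was not tested.

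Between the parents few of these genes were called. Their summed share at T0 nevertheless lay between 6.17 and 7.17% in S. cerevisiae, against 2.34 to 3.64% in S. paradoxus. At T0 none was called (1.68% of all genes were lower in S. paradoxus), although 40 of the 43 were lower, with a median of -1.31. At an unadjusted p under 0.05 there were 12 genes, and DESeq2 called 6. At M1 RPL13A was lower in S. paradoxus (1.58% of all genes), with a difference of -5.13 ± 1.14 (adjusted p = 0.00383). At M1M2 RPL2B and RPL3 were lower (2.71% of all genes), with differences of -4.46 ± 1.03 and -3.04 ± 0.76, but both rest on the shallow S. cerevisiae library, without which they were at -1.75 and -0.55 and not called, and neither was called without S. paradoxus M1M2 replicate 1 or 3. At M2 RPL40A, which encodes a ubiquitin fused to a ribosomal protein, was lower (0.937% of all genes), at a difference of -3.44 ± 0.81, with 75.2, 44.0 and 43.5 CPM in S. paradoxus, against 228, 847 and 713 in S. cerevisiae. RPP2A was higher (1.2% of all genes), by 3.67 ± 0.89, with 111, 276 and 202 CPM in S. paradoxus, against 20.3, 10.0 and 15.4 in S. cerevisiae. Neither pair of groups overlapped, but RPP2A was not called without S. cerevisiae M2 replicate 2 or 3, and RPL40A not without S. cerevisiae M2 replicate 2 or S. paradoxus M2 replicate 2 or 3.

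The hybrid held both species' copies of each gene, and edgeR called no large subunit gene between them. The S. paradoxus allele minus the S. cerevisiae allele passed the test for 0 of the 43 genes at T0 (0.133% of all 2997 genes tested), M1 (0.868%), M1M2 (0.834%) or M2 (1.53%). At an unadjusted p under 0.05 there were 0, 3, 2 and 2, and DESeq2 called 0, 3, 1 and 1. The smallest adjusted p was 0.997, 0.351, 0.588 and 0.371. Summed over the 43 genes, the S. paradoxus allele had 52.1 ± 11.6% of the allele counts at T0, 50.3 ± 2.99% at M1, 53.2 ± 0.678% at M1M2 and 43.3 ± 14.4% at M2 (SD, n = 4), against 54.5, 51.7, 51.7 and 51.5% for all genes. At T0 replicate 1 was at 68.9%, where all genes were at 65.5%, and the others at 49.3, 47.2 and 42.9%. At M2 the shallow replicate 3 was at 23.7% and replicate 4 at 41.3%, while replicates 1 and 2 were at 54.0 and 54.1%. The value of replicate 3 rests mostly on few genes. In it the S. cerevisiae allele had 160 counts of RPL27B, 85 of RPP0 and 75 of RPL4B, and the S. paradoxus allele 67 of RPL32. Single genes varied more. The S. paradoxus share of RPL2B in the 4 T0 libraries was 63.9, 27.0, 6.27 and 20%, that of RPL33A 50.1, 45.2, 26.8 and 8.70%, and that of RPL36A 94.9, 57.2, 65.2 and 97.0%, so libraries of 1 stage differed widely. Such shares do not show that the alleles were equal.

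**Figure D5:**
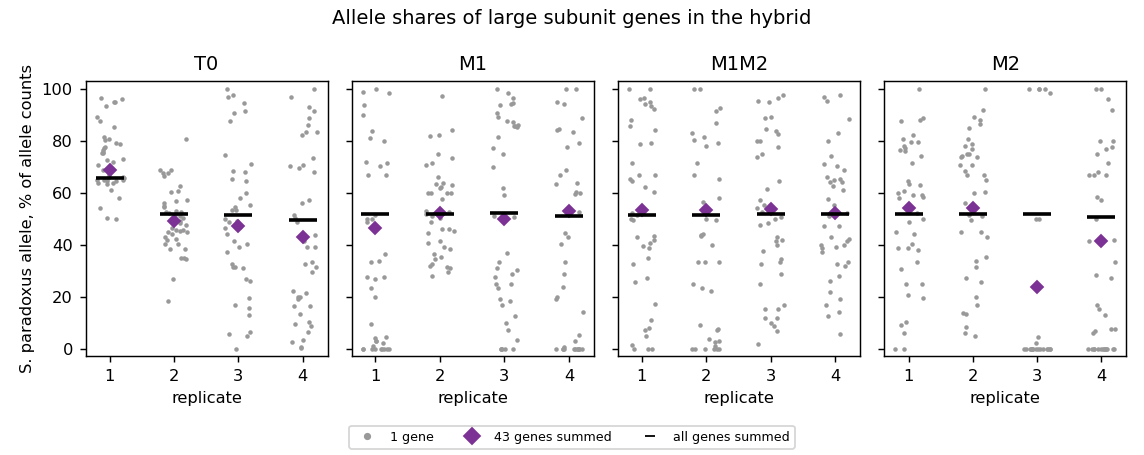
Share of the S. paradoxus allele in the allele counts of the hybrid (%), by stage and library; small points are single genes, diamonds the 43 genes summed and bars all genes summed. At M1M2 the diamonds lie between 52.2 and 53.7%, close to the bars, while single genes range from 0 to 100%.

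Members of a pair were called in different numbers of the 9 comparisons with T0, and no test between them was made. In RPL1, whose coding sequences are 99.4% identical, RPL1A was called in 0 and RPL1B in 3. In RPL4 (98.9%) RPL4A was called in 1 and RPL4B in 3, and in RPL35 (99.2%) RPL35A in 1 and RPL35B in 4. In the pairs that are less alike, RPL27 (89.8%) had 6 calls for RPL27A and 4 for RPL27B, RPL21 (94.0%) had 6 for RPL21A and 5 for RPL21B, RPL17 (92.4%) had 5 and 6, RPL43 (89.6%) 5 and 6, and RPL26 (93.2%) 6 for each. RPL27A and RPL27B had 64.6, 91.0, 316 and 70.4 CPM and 699, 655, 701 and 1426 CPM in the hybrid at T0, so RPL27B was the higher copy in every library. In S. paradoxus the order at T0 was the other way round in all 3 libraries, with 268, 347 and 555 CPM for RPL27A and 170, 157 and 314 CPM for RPL27B, and in S. cerevisiae the copies were close at 1486, 1609 and 1459 CPM and 1230, 1591 and 1107 CPM. Both copies have a coding length of 411 bases. Of the 43 genes 31 have an intron in R64, and their coding lengths run from 156 to 1164 bases.

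Other genes of the translation machinery showed which of these patterns the large subunit shared, without a test between lists. Of 29 small subunit genes 22, 24 and 26 fell in the hybrid at M1, M1M2 and M2, 1, 11 and 20 in S. paradoxus, and 3, 15 and 24 in S. cerevisiae. Of 7 elongation factor genes 6, 6 and 7 fell in the hybrid, 2, 2 and 4 in S. paradoxus and 1, 2 and 5 in S. cerevisiae. YEF3, for the elongation factor found in fungi, fell at M1, with changes of -6.25 ± 0.63 in the hybrid and -3.29 ± 0.63 in S. paradoxus. Of 30 assembly factor genes of the large subunit 27, 25 and 24 fell in the hybrid, 2, 6 and 11 in S. paradoxus and 25, 16 and 18 in S. cerevisiae. At M1 in S. cerevisiae 2 of the 43 ribosomal protein genes were called by edgeR and 13 by DESeq2, and for 40 of them every M1 library lay below every T0 library. The difference between the lists was not tested. The median of the assembly factors at M1 was -4.45 in the hybrid, -1.47 in S. paradoxus and -4.05 in S. cerevisiae. In level at M1 the hybrid was below the parental mean for 16 of 29 small subunit genes and 4 of 7 elongation factor genes but for 0 of 30 assembly factor genes, whose median difference was -0.89. Of 6 genes that regulate ribosomal protein genes (RAP1, SFP1, HMO1, CRF1, SCH9 and TOR1) 1, 2 and 3 fell in the hybrid at M1, M1M2 and M2, 1, 1 and 2 in S. paradoxus, and 0, 0 and 1 in S. cerevisiae, and none rose. HMO1, for a protein bound at the promoters of these genes, fell in the hybrid at M1M2 and M2, in S. paradoxus at all 3 stages and in S. cerevisiae at M2, with a change of -3.60 ± 0.96 at M1 in S. paradoxus. SFP1, for a zinc-finger activator, fell in the hybrid at M1 (-3.04 ± 0.84) and M2. SCH9, for a nutrient-responsive kinase, fell in the hybrid at M1M2 and M2 and in S. paradoxus at M2. RAP1, CRF1 and TOR1 were called in none of the 9 comparisons with T0.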

How the data were processed

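The authors deposited raw counts per feature for each sample and, for the hybrid, counts per allele. The submitters' processing notes name Bowtie 0.12.7 and DESeq 1.8.3. The counting tool, annotation and builds are not given in the sources used here. Per the labels' protocols messenger RNA was selected, copied from poly-A primers and sequenced on a HiSeq, and 3 libraries carry 2 indexes. Variance-stabilised tables were not used.

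Of 3463 features, 246 name no gene (0.392 to 4.95% of a library) and were left out. Counts were fitted in R 4.3.3 with edgeR 4.0.16 (TMM factors from 0.531 to 1.34, filterByExpr by group, quasi-likelihood test) in 1 model of 12 groups and 40 libraries, with 3094 genes tested. The common coefficient of variation was 0.871, which limits what can be called. Alleles were fitted with the library as a block (2997 genes). The scripts were tested on simulated data. Alternatives were size factors of the DESeq2 kind, DESeq2 1.42.0, no filter on low counts, leaving out single libraries or the 4 shallowest, and the replicate number as a block. Replicates are biological per the series' design text. The labels number them, but libraries with the same number did not deviate together (mean correlation 0.0135 in the hybrid, 0.00724 in S. paradoxus and 0.0436 in S. cerevisiae), so they were not paired.

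Named genes were those called with the largest change, up to 4 per comparison with a mean count of at least 50, and RPL2B, RPL14A, RPL13A, RPL21A, RPL21B, RPL3, RPL5, RPL10, RPL25 and RPP0. Others, among them RPL31A in later comparisons, were added to the named genes with their values known. The members and lists were chosen with earlier results of these data known. Windows, coding lengths and copies come from the RefSeq R64 genome of S. cerevisiae, read with Biopython 1.88. All 45 listed genes matched it by identifier. Identity of pairs is that of coding sequences.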

Additional observations from a re-analysis of the deposited data

Results flagged for a closer look

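Among 104 groups of 4 hybrid libraries, made of 24 named genes, the summed share and the allele share at each stage, 11 held a library far from the other three, and chance gives about 1 in 20 such groups where values are normally distributed, a rate that skewed CPM values can exceed. In each the distant library was the highest. At T0 RPL22A had 2809 CPM in replicate 4, against 393 to 784 in the others, RPL27B 1426 in replicate 4, against 655 to 701, RPL5 3338 in replicate 4, against 1216 to 1416, RPL27A 316 in replicate 3, against 64.6 to 91.0, and RPL6B 996 in replicate 3, against 416 to 493. At M1 RPL21B had 89.1 CPM in replicate 3, against 18.3 to 25.9, and RPL22A 177 in replicate 4, against 9.15 to 33.1. At M1M2 RPL37A had 20.2 CPM in replicate 3, against 1.16 to 4.18. At M2 RPL14A had 133 CPM in replicate 4, against 6.08 to 16.2, while RPL27B had 1734 and RPL4B 813 CPM in the shallow replicate 3, against 39.2 to 112 and 1.25 to 12.6.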

How the results depend on the processing

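Values here are counts of the 43 genes called, without the share of all genes beside them. Shallow libraries and a wide spread limit all of them, and small changes could not be detected. For the stage comparisons that were large, no direction changed. With size factors in place of TMM the count was 1 for S. paradoxus at M1, 7 for the level difference between hybrid and parental mean at M2 (2 higher, 5 lower) and 2 for the hybrid step from M1M2 to M2. Over all genes, that scaling moved the median by 0.14 (M1) and 0.22 (M2) in the hybrid, by 0.12, 0.12 and 0.12 in S. paradoxus, by 0.12 and 0.18 in the hybrid differences in change at M1 and M2, by 0.19, 0.28 and 0.21 in the differences in change between the parents, by -0.20 in the parental level difference at T0 and by -0.15 and 0.18 in the hybrid steps. With DESeq2 it was 13 for S. cerevisiae at M1. In the differences in change DESeq2 gave 3 at M1 and 1 at M1M2 for hybrid minus parental mean and 1 at M1 and 3 at M2 for S. paradoxus minus S. cerevisiae. In level it gave 3 at T0 and 11 at M2 for the hybrid (2 higher, 9 lower) and 6 at T0 and 4 at M2 between the parents. In steps it gave 1 and 7 in the hybrid, 6 in S. paradoxus from M1 to M1M2 and 1 in S. cerevisiae from M1 to M1M2. For alleles it gave 3, 1 and 1 at M1, M1M2 and M2. The cause of these differences was not tested.

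Without the 4 shallowest libraries the count was 4 for S. paradoxus at M1, 1 for the hybrid difference in change at M1, 2 for the parental difference in change at M2, 2 and 0 for the hybrid level at T0 and M2, 4 and 0 for the parental level at T0 and M1M2, 1 and 0 for the hybrid steps, 2 for the S. paradoxus step from M1 to M1M2 and 0 for the S. cerevisiae step from M1M2 to M2. With the replicate block it was 0 for the hybrid level at M2 and 0 for the hybrid step from M1M2 to M2, and other counts remained within 1.5 times. Among named genes those not called with the block were also RPL6B in S. cerevisiae at M1 (adjusted p = 0.0661), RPL14A in S. cerevisiae at M1M2 (0.0533) and RPL35B in S. paradoxus at M1M2 (0.0553). Since the replicate numbers did not pair the libraries, these are given as values alone.

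Leaving out 1 library at a time gave these ranges. For the hybrid against T0 they were 21 to 30 at M1, 30 to 35 at M1M2 and 33 to 37 at M2, for S. paradoxus 1 to 3, 6 to 13 and 12 to 20, and for S. cerevisiae 0 to 3, 5 to 29 and 31 to 35. For differences in change they were 0 to 1 for the hybrid at M1 and 0 to 1 for the parents at M2. For the hybrid level they were 1 to 2 at T0, 13 to 21 at M1, 9 to 11 at M1M2 and 0 to 4 at M2, against single parents at M1 6 to 16 (S. paradoxus) and 15 to 22 (S. cerevisiae), and for the parental level 0 to 2 at M1M2 and 0 to 2 at M2. For the steps from M1M2 to M2 they were 0 to 1 in the hybrid and 0 to 3 in S. cerevisiae. The direction was reversed at M2 for the hybrid level, with 2 calls, both higher, without replicate 1 and 3 calls, 2 higher and 1 lower, without replicate 4. Among named genes, the uncalled change at M1 in S. paradoxus ran from -1.64 to 0.12 for RPL21B, being positive without M1 replicate 2, and from -0.19 to 0.44 for RPL25, at -0.19, -0.0049 and -0.06 without T0 replicate 1, M1 replicate 1 and M1 replicate 2.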
